A study of Mus musculus with 12 samples.

Results

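The 10 genes described here are early response genes of 4 families: the Krüppel-like factors Klf2, Klf4, Klf6 and Klf10, the early growth response factors Egr1 and Egr2, the immediate early response genes Ier2, Ier3 and Ier5, and the stress gene Gadd45b. They were taken by symbol, and all 10 were found among the 18190 genes of the deposited table. RNA had been sequenced from RAW264.7 cells, a mouse macrophage line. There were 4 groups of 3 libraries. They were shDCLK1 cells given LPS at 500 ng/ml for 6 h, untreated shDCLK1 cells, control cells given the same LPS, and untreated control cells. The shDCLK1 cells carried a stable short hairpin RNA against DCLK1 (doublecortin-like kinase 1), and the controls a negative control hairpin according to the protocol, although their knockdown label reads "none". Every group was plated at 200000 cells per well, and according to the protocol all of them come from stably transduced lines, which it calls monoclonal. How many clones stood for each hairpin is not stated, so hairpin and clone cannot be told apart in any difference between the lines. LPS, lipopolysaccharide of the bacterial cell wall, is sensed by the receptor TLR4.

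Early response genes are transcribed without new protein synthesis, by factors already present in the cell, such as serum response factor, its ETS partners, CREB or NF-κB. Many of their transcripts are short-lived, so that a level hours after a stimulus reflects decay and later transcription as well as the first burst. In macrophages several of these factors shape the inflammatory response itself: KLF2 restrains NF-κB targets, KLF6 favours them, KLF4 takes part in monocyte differentiation and in alternative activation, and GADD45B and IER3 are NF-κB targets that act on MAP kinase signalling and survival.

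The members are compact genes. All 10 span under 10000 bases in the RefSeq annotation of GRCm38.p6, as 24.7% of the tested genes do, and their median span was 3510 bases, against 22362 bases for the tested genes. In GENCODE M21, 9 of the 10 have at most 4 exons in their longest coding transcript, as 20.1% of tested genes do, and Ier2 and Ier5 have 1 exon. RefSeq promoter windows were at hand for 7 members (Klf2, Klf4, Klf6, Egr2, Ier3, Ier5 and Gadd45b), with several start sites for Egr2. The windows are shown for 4 genes, because among the members Gadd45b and Ier3 had the largest rises with LPS, Klf4 the deepest fall in shDCLK1 cells, and Klf2 a direction that differed between the lines. Each is the GRCm38.p6 sequence from RefSeq that begins 250 bases before the start site and stops short of any exon of the gene in GENCODE M21. The authors' coordinates are not given in the sources used here. The positions are chr10:80929841-80930072 on the plus strand (Gadd45b), chr17:35821463-35821683 on the plus strand (Ier3), chr4:55532476-55532725 on the minus strand (Klf4) and chr8:72318812-72319032 on the plus strand (Klf2). Capitals mark matches, on either strand, to the kappa-B motif, the CArG box of serum response factor, TATAAA, the EGR site GCGGGGGCG, the GC box GGGCGG of SP and KLF factors, and the core TGACG of sites for CREB.
Gadd45b: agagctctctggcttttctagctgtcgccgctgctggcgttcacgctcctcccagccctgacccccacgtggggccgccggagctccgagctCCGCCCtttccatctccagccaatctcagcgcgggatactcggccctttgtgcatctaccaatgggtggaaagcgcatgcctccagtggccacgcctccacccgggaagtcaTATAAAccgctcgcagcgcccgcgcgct
Ier3: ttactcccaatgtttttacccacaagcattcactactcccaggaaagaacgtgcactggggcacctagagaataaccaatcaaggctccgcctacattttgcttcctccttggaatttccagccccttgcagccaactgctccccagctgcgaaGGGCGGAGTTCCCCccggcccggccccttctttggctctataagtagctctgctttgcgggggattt
Klf4: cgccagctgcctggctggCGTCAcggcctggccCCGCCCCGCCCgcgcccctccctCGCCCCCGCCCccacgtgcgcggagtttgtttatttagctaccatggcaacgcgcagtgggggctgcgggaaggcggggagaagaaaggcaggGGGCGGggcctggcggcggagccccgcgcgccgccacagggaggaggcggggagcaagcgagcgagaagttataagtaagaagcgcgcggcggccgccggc
Klf2: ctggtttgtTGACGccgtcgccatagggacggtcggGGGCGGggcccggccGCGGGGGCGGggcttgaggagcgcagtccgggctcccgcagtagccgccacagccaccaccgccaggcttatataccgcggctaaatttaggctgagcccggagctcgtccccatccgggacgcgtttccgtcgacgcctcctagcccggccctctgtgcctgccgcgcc

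The Gadd45b window held 1 TATAAA, at bases -46 to -41 from the start site, and 1 GC box. In the Ier3 window a kappa-B match at -92 to -83 overlapped a GC box at -96 to -91. The Klf4 window held 4 GC boxes and, overlapping one of them, an EGR site at -194 to -186. The Klf2 window held an EGR site at -199 to -191, which overlaps the second of its 2 GC boxes. Among the 7 members with a window, Ier3 alone had a kappa-B match, and Egr2 alone a CArG box (CCATATATGG or CCTTTTTTGG, by start site). Of the 32851 promoter windows of all genes, cut to the same 250 bases, 3.9% held the kappa-B motif, 1.47% the CArG box, 12.37% TATAAA, 17.77% TGACG, 2.57% the EGR site and 32.74% the GC box. Of the 11039 windows of tested genes, 4.44% held the kappa-B motif, 1.01% the CArG box, 6.37% TATAAA, 27.76% TGACG, 4.67% the EGR site and 57.83% the GC box. These matches describe letters in a window, and no binding was measured.

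Values are FPKM as deposited, normalized by the authors for transcript length and for the size of the library, so that levels can be compared between genes. Comparisons between libraries depend in part on the scaling, as described below. Summed over genes, a library held 457695 to 495373 FPKM, with 10119 to 10619 genes at 1 FPKM or above. Within a group, libraries correlated at r = 0.993 to 0.996. The labels do not say that they are separate cultures, and p-values then measure the spread between these libraries alone, which may be technical. In bulk RNA fewer cells that express a gene and less RNA per cell cannot be told apart. Dclk1, the target of the hairpin, was at 0.01 FPKM or less in every library, so that the knockdown could not be checked. Of 9 macrophage markers 8 averaged above 1 FPKM in each group, and Mertk did not. Their summed level was 1942 to 2031 FPKM in shDCLK1 cells with LPS, 1630 to 1675 in untreated shDCLK1 cells, 1098 to 1113 in control cells with LPS and 986 to 989 in untreated control cells. Most of the difference between the lines in that sum lay in Lyz2 (lysozyme), at 966 FPKM in shDCLK1 and 206 FPKM in control cells with LPS, and at 642 and 97.35 FPKM in the untreated lines. The sum was higher with LPS in both lines, as were Adgre1, Ptprc, Fcgr1, Spi1 and Lyz2, but Cd68 and the growth factor receptor gene Csf1r were lower. Cd68 was at 332 FPKM with LPS and 367 FPKM untreated in shDCLK1 cells, and at 226 and 319 FPKM in control cells. Itgam was lower with LPS in shDCLK1 cells (40.6 against 55.5 FPKM) and higher in control cells (47.4 against 35.5 FPKM). Csf1r was at 64.9 FPKM with LPS and 266 FPKM untreated in shDCLK1 cells, and at 15.8 and 247 FPKM in control cells. Single markers also went against the line difference. With LPS Itgam, Ptprc and Fcgr1 were lower in shDCLK1 than in control cells, while Adgre1, Cd68, Csf1r, Spi1 and Lyz2 were higher. In untreated cells Adgre1 alone of these was lower in shDCLK1 cells, at 9.83 against 14.4 FPKM. Lists of epithelial, fibroblast, T cell, B cell, endothelial, neutrophil and adipocyte markers summed to at most 4.39 FPKM in any library. The neutrophil list summed to 2.07 to 4.39 FPKM in shDCLK1 cells with LPS and 1.74 to 2.06 FPKM in control cells with LPS, nearly all of it S100a8, while Mpo and Elane were at or near 0. In untreated cells that list summed to at most 0.06 FPKM. The endothelial list summed to 3.12 to 3.93 FPKM in shDCLK1 and 2.18 to 2.54 FPKM in control cells with LPS, and to 0.51 to 0.67 and 0.86 to 1.22 FPKM in the untreated lines. Pecam1 made up most of it, and Cdh5 and Kdr were near 0. The adipocyte list was read because a label protocol names adipose tissue. It summed to 1.38 to 2.05 FPKM in shDCLK1 and 0.09 to 0.43 FPKM in control cells with LPS, nearly all of it Fabp4. In the untreated lines it summed to 0.09 to 0.12 FPKM in shDCLK1 and 0 FPKM in control cells. The part of these markers in the results was not tested.

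LPS moved the 10 early genes in both directions, and by different amounts in the 2 lines. In shDCLK1 cells 5 of the 10 were higher and 5 lower with LPS at an adjusted p under 0.05 (limma on log2(FPKM + 1), Benjamini-Hochberg over 11052 genes). In that comparison 24.9% of all tested genes were called higher and 59.7% lower, 84.6% in all. The 3 LPS and 3 untreated libraries did not overlap for 4 members that were higher and 4 that were lower (24.8% and 59.7% of all genes). In control cells 5 members were higher and 4 lower, against 24.8% and 62.1% of all genes, 86.9% in all, and the groups did not overlap for 6 higher and 4 lower (25.3% and 62.5%). With calls this common, being called says little by itself, and the sizes carry the description. The median change of the members was 0.11 log2 units in shDCLK1 cells and 0.21 in control cells, where the median of all tested genes was -0.29 and -0.38. Between untreated lines 7 members were higher and 1 lower in shDCLK1 cells, against 21.4% and 23.6% of all genes, 45% in all, and the lines did not overlap for the same counts, 7 and 1 (24.6% and 29.2%). With LPS 4 were higher and 4 lower in shDCLK1 cells, against 34.3% and 14.3% of all genes, 48.6% in all, and the lines did not overlap for 4 and 5 (38.9% and 18.1%). The LPS change differed between the lines for 9 of the 10 by the interaction term, as for 49.4% of all genes, 3 of them with a more positive change in shDCLK1 cells (32.6% of all genes) and 6 with a more negative one (16.9%).

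Large changes were less common over all genes. With LPS 2 members rose by at least 1 log2 unit in shDCLK1 cells, Ier3 and Gadd45b (6.89% of all genes did), and 2 fell by at least as much, Klf4 and Klf10 (15.5%). In control cells 3 rose that far, Klf6, Ier3 and Gadd45b (8.3%), and Klf4 and Klf10 fell (21.5%). Between the untreated lines Klf4 alone passed that size, higher in shDCLK1 cells (1.68%), and with LPS Klf2 and Klf10 did (1.38%). None of the members was lower in shDCLK1 cells by that much, untreated (0.19% of all genes) or with LPS (0.416%). In the interaction 4 members, Klf4, Klf6, Egr1 and Gadd45b, were at or below -1 (1.98%) and 0 at or above 1 (1.73%).

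**Figure D1:**
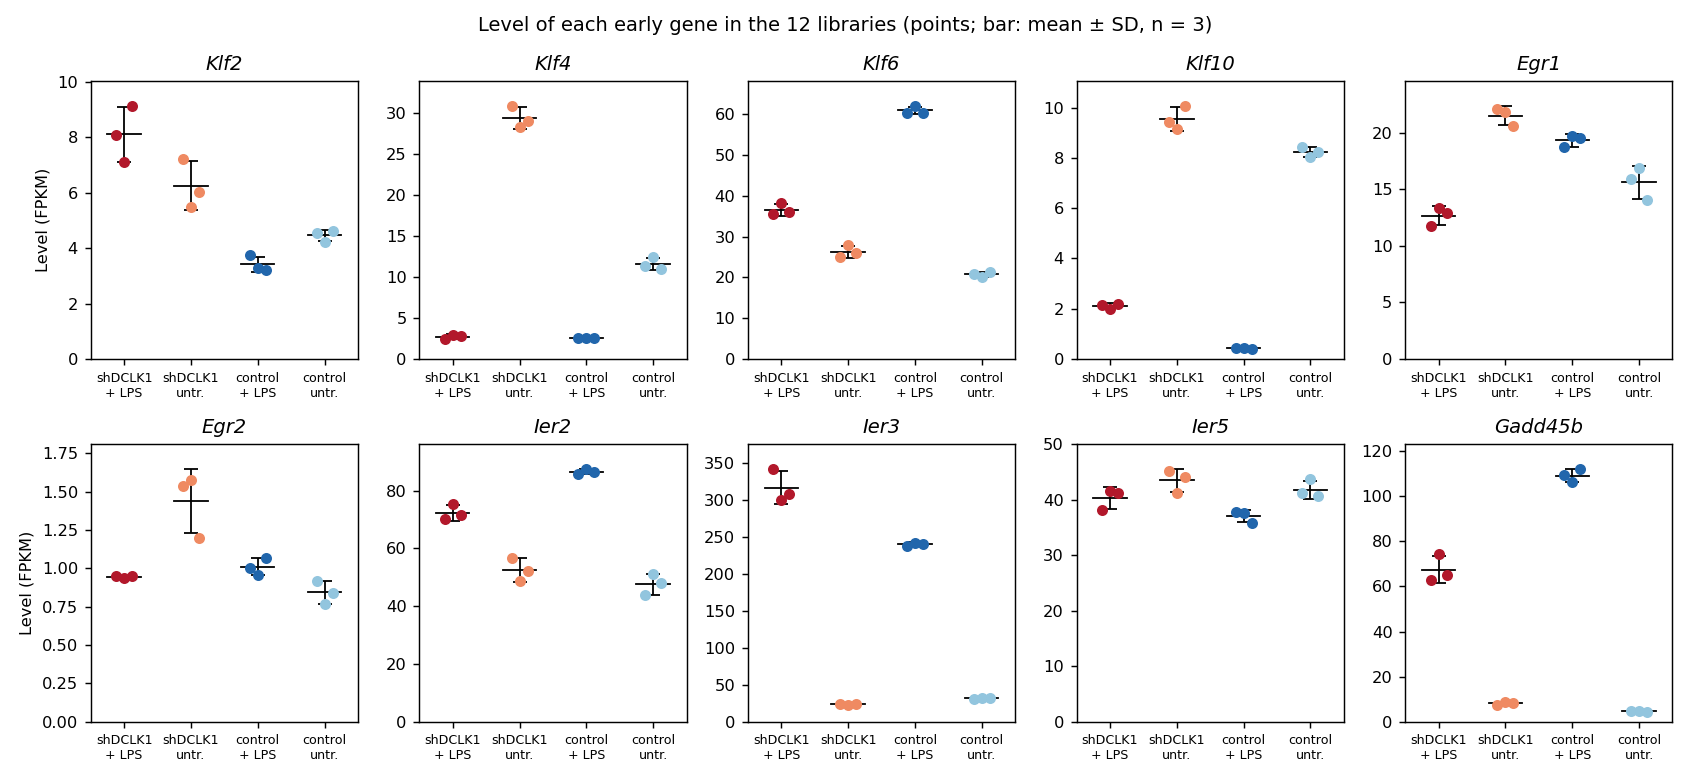
Level of each gene in FPKM (y axis, from 0, its own scale per gene) in the 12 libraries, as points by group, with bars for the mean ± SD of 3 libraries. Gadd45b and Ier3 stand far above their untreated levels in both lines with LPS, Klf4 and Klf10 far below, and Egr1 is lowest in shDCLK1 cells with LPS.

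The plot of levels shows each library, and the order of the genes changed with LPS. In untreated cells Ier2 was the most abundant in both lines, at 52.5 ± 4.07 FPKM in shDCLK1 and 47.6 ± 3.62 FPKM in control cells, followed by Ier5. With LPS Ier3 led both lines, at 316 ± 22.2 FPKM in shDCLK1 and 240 ± 2.51 FPKM in control cells. Gadd45b ranked 3 of 10 in shDCLK1 cells with LPS, at 67.3 ± 6.01 FPKM, where its libraries overlapped those of Ier2 above it, and 2 of 10 in control cells with LPS, at 109 ± 2.93 FPKM. In both lines it ranked 8 of 10 without LPS. Egr2 was the lowest or next to lowest in every group, near 1 FPKM. It reached 1 FPKM in the 3 untreated shDCLK1 libraries and in 2 control libraries with LPS, so that it entered the fit only through the group where it was highest, and its calls against that group are no independent support.

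Among the Krüppel-like factors, Klf4 and Klf10 fell with LPS in both lines. Klf4, a factor of monocyte differentiation, was at 2.38, 2.95 and 2.84 FPKM in shDCLK1 cells with LPS and at 30.79, 28.25 and 28.99 FPKM in untreated shDCLK1 cells. In control cells it was at 2.51, 2.53 and 2.58 FPKM with LPS and at 11.4, 12.4 and 11.02 FPKM without. The untreated shDCLK1 libraries stood alone at the top, while the LPS libraries of both lines overlapped. The mean was 10.8-fold lower with LPS in shDCLK1 cells (log2 change -3.03, SE 0.0617, adjusted p = 1.25e-13) and 4.57-fold lower in control cells (log2 change -1.83, SE 0.0617, adjusted p = 9.59e-12). Only 0.407% of tested genes had a lower log2 change than Klf4 in shDCLK1 cells, and 6.7% in control cells. Before LPS it was 2.53-fold higher in shDCLK1 than in control cells (log2 difference 1.27, adjusted p = 7.61e-09). With LPS the lines were 1.07-fold apart, a log2 difference of 0.07 with an SE of 0.0617 (adjusted p = 0.380). The line with the larger fall was thus the one with the higher untreated level.

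Klf10, a factor induced early by TGF-β, was at 2.16, 2 and 2.2 FPKM in shDCLK1 cells with LPS and at 9.42, 9.14 and 10.1 FPKM in untreated shDCLK1 cells. Control cells held 0.42, 0.45 and 0.39 FPKM with LPS and 8.42, 8.04 and 8.23 FPKM without. The control libraries with LPS were the lowest, and no 2 groups overlapped. The mean was 4.50-fold lower with LPS in shDCLK1 cells and 19.6-fold lower in control cells. The log2 changes were -1.76 (SE 0.0505, adjusted p = 3.03e-12) and -2.70 (SE 0.0505, adjusted p = 2.97e-14). After LPS shDCLK1 cells thus held 5.05 times the Klf10 of control cells, a log2 difference of 1.14 (adjusted p = 4.24e-09). Before LPS the ratio was 1.16 (log2 difference 0.19, adjusted p = 0.00856). The added 1 FPKM understates the change of a gene this low. With 0.1 FPKM added instead, the log2 difference between the lines with LPS was 2.09 and the interaction 1.89, against 0.95 as fitted.

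Klf6, which promotes inflammatory gene expression in macrophages, was at 35.5, 38.3 and 36.1 FPKM in shDCLK1 cells with LPS and at 24.98, 27.85 and 25.99 FPKM in untreated shDCLK1 cells. In control cells it was at 60.4, 62.0 and 60.4 FPKM with LPS and at 20.9, 20.1 and 21.2 FPKM without. No 2 groups overlapped, and control cells with LPS were the highest. It rose 1.39-fold in shDCLK1 cells (log2 change 0.47, SE 0.0414, adjusted p = 2.49e-07) and 2.93-fold in control cells (log2 change 1.51, SE 0.0414, adjusted p = 1.23e-12). In shDCLK1 cells the gene was 1.27-fold higher before LPS (adjusted p = 4.85e-05) and, with LPS, at 0.601 times the control level (log2 difference -0.72, adjusted p = 3.74e-08). Median-of-ratios scaling put the rise at 0.78 log2 units in shDCLK1 and 1.92 in control cells. The difference of the LPS changes was then -1.14, against -1.04 as fitted.

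Klf2, a factor that restrains inflammatory activation of myeloid cells, was low in all groups. It was at 8.09, 7.12 and 9.12 FPKM in shDCLK1 cells with LPS and at 7.23, 5.5 and 6.04 FPKM in untreated shDCLK1 cells, groups that overlapped. In control cells it was at 3.74, 3.3 and 3.22 FPKM with LPS and at 4.54, 4.23 and 4.62 FPKM without. All shDCLK1 libraries lay above all control libraries. With LPS the level was 2.37-fold higher in shDCLK1 than in control cells (log2 difference 1.04, SE 0.0929, adjusted p = 1.81e-06), and without LPS 1.40-fold (log2 difference 0.40, adjusted p = 0.00368). As deposited, LPS raised it in shDCLK1 cells (log2 change 0.33, adjusted p = 0.00527) and lowered it in control cells (log2 change -0.31, adjusted p = 0.00773). The rise in shDCLK1 cells was 0.62 after median-of-ratios scaling and 0.76 after quantile normalization. The fall in control cells depends on the scaling: median-of-ratios scaling put the change at 0.03 (adjusted p = 0.753) and quantile normalization at 0.25 (adjusted p = 0.0289). Relative to the median of all genes the changes were 0.62 in shDCLK1 and 0.07 in control cells. The difference between the LPS changes was called in every alternative, between 0.50 and 0.75 log2 units (0.64 as fitted, adjusted p = 0.00161).

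Of the early growth response factors, Egr1 changed with LPS in opposite directions in the 2 lines. Egr1, a zinc finger factor switched on by ERK signalling and serum response factor, was at 11.8, 13.3 and 12.9 FPKM in shDCLK1 cells with LPS and at 22.1, 21.9 and 20.6 FPKM in untreated shDCLK1 cells. It was at 18.7, 19.7 and 19.5 FPKM in control cells with LPS and at 15.9, 16.9 and 14.1 FPKM in untreated control cells. LPS thus left it lowest of all in shDCLK1 cells and above the untreated level in control cells, with no overlap in either. It fell in shDCLK1 cells (log2 change -0.72, SE 0.0614, adjusted p = 1.58e-07) and rose in control cells (log2 change 0.29, SE 0.0614, adjusted p = 6.04e-04). Both directions held under either scaling, with changes of -0.41 and 0.70 after median-of-ratios scaling and -0.42 and 0.66 after quantile normalization. The difference of the LPS changes was -1.01 log2 units (SE 0.0868, adjusted p = 1.40e-06). The line difference turned with it: shDCLK1 cells were at 0.656 times the control level with LPS (adjusted p = 9.25e-06) and 1.38-fold higher without (adjusted p = 9.73e-05).

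Egr2, known for its part in myelination and as a marker of alternative activation in mouse macrophages, was at 0.95, 0.94 and 0.95 FPKM in shDCLK1 cells with LPS and at 1.54, 1.58 and 1.2 FPKM in untreated shDCLK1 cells. It was at 1, 0.96 and 1.07 FPKM in control cells with LPS and at 0.92, 0.77 and 0.84 FPKM in untreated control cells. Untreated shDCLK1 cells were the highest, 1.71-fold above untreated control cells. That group let the gene through the filter, so this difference is given as a description. In a fit of all 18190 genes without a filter it was 0.40 log2 units (SE 0.0619, adjusted p = 7.37e-04). The lower level with LPS in shDCLK1 cells (log2 change -0.32, adjusted p = 0.00157, and 9.05e-04 without the filter) was not called after median-of-ratios scaling (-0.14, adjusted p = 0.0946) or quantile normalization (-0.10, adjusted p = 0.233). In control cells the log2 change was 0.13 (adjusted p = 0.139), which became a called rise of 0.33 (adjusted p = 0.00114) under the first scaling and of 0.42 (adjusted p = 2.38e-04) under the other. With LPS the lines differed by -0.05 (adjusted p = 0.652), and by -0.22 (adjusted p = 0.0342) after quantile normalization.

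**Figure D2:**
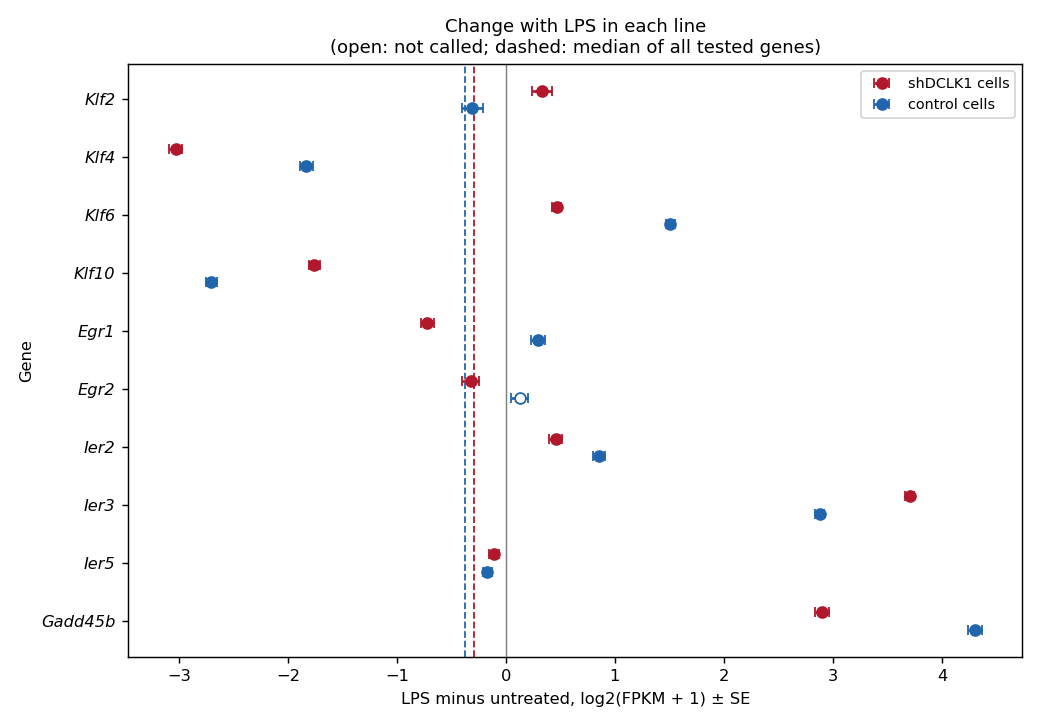
Change with LPS on the log2(FPKM + 1) scale (x axis) for each gene (y axis), with bars of 1 SE, in shDCLK1 and control cells. Filled points passed an adjusted p of 0.05, and dashed lines mark the median of all tested genes. As deposited, Klf2, Egr1 and Egr2 lie on opposite sides of 0 in the 2 lines, with Egr2 not called in control cells. Gadd45b reaches 2.90 in shDCLK1 and 4.30 in control cells.

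Of the immediate early response genes, Ier3 rose most. Ier3 (also called IEX-1) is induced by NF-κB and stress and acts on cell survival. It was at 341, 299 and 308 FPKM in shDCLK1 cells with LPS and at 23.3, 22.9 and 23.7 FPKM in untreated shDCLK1 cells. In control cells it was at 237, 242 and 240 FPKM with LPS and at 30.5, 32.1 and 32.5 FPKM without. It was the only member lower in untreated shDCLK1 cells (log2 difference -0.43, adjusted p = 5.80e-06), and it was 1.32-fold higher there with LPS (log2 difference 0.40, adjusted p = 1.00e-05), without overlap in either state. The rise was 13.6-fold in shDCLK1 cells (log2 change 3.70, SE 0.0429) and 7.55-fold in control cells (log2 change 2.88, SE 0.0429). The adjusted p were 1.45e-15 and 3.47e-15. The interaction was 0.83 log2 units (SE 0.0607, adjusted p = 3.75e-07).

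Ier2, a small nuclear protein of the early response, was at 70.0, 75.4 and 71.7 FPKM in shDCLK1 cells with LPS and at 56.7, 48.6 and 52.2 FPKM in untreated shDCLK1 cells. In control cells it was at 85.8, 87.5 and 86.5 FPKM with LPS and at 43.8, 51 and 47.9 FPKM without. Only the untreated groups of the 2 lines overlapped. The gene rose 1.38-fold in shDCLK1 cells (log2 change 0.46, adjusted p = 8.57e-06) and 1.82-fold in control cells (log2 change 0.85, adjusted p = 1.40e-08), and median-of-ratios scaling put these at 0.78 and 1.27. With LPS it was at 0.836 times the control level in shDCLK1 cells (adjusted p = 0.00312). The untreated lines differed by 0.14 log2 units (adjusted p = 0.0718). Leaving out untreated shDCLK1 library 2 or untreated control library 2 made this a call (0.19 in both, adjusted p = 0.0213 and 0.0251).

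Ier5, which in human cells promotes the activity of heat shock factor, had small changes in every comparison. It was at 38.1, 41.6 and 41.2 FPKM in shDCLK1 cells with LPS and at 45.2, 41.2 and 44.0 FPKM in untreated shDCLK1 cells. In control cells it was at 37.8, 37.6 and 35.9 FPKM with LPS and at 41.2, 43.6 and 40.6 FPKM without. The log2 changes with LPS were -0.11 (adjusted p = 0.0420) in shDCLK1 and -0.17 (adjusted p = 0.00330) in control cells. The groups overlapped in shDCLK1 cells, and that call was lost without LPS library 1 or untreated library 1 or 3 of the line (adjusted p = 0.182, 0.153 and 0.104). Under median-of-ratios scaling both changes were positive, 0.22 (adjusted p = 6.80e-04) in shDCLK1 and 0.25 (adjusted p = 2.26e-04) in control cells. Under quantile normalization they were 0.02 (adjusted p = 0.685) and 0.01 (adjusted p = 0.894). Relative to the median of all genes they were 0.19 and 0.21. It was the only member without a called interaction (0.06 log2 units, SE 0.0632, adjusted p = 0.434). The difference between the lines with LPS (0.12, adjusted p = 0.0457) was lost without shDCLK1 library 2 or 3 or any of the 3 control libraries with LPS (adjusted p 0.0607 to 0.153). It was lost after both scalings too.

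Gadd45b had the largest change in control cells. It encodes a stress sensor that binds kinases upstream of p38 and JNK and is an NF-κB target. It was at 62.9, 74.2 and 64.9 FPKM in shDCLK1 cells with LPS and at 7.52, 8.63 and 8.27 FPKM in untreated shDCLK1 cells. Control cells held 109, 106 and 112 FPKM with LPS and 4.83, 4.54 and 4.37 FPKM without. No 2 groups overlapped. The rise was 8.27-fold in shDCLK1 cells (log2 change 2.90, SE 0.0614, adjusted p = 1.75e-13) and 23.8-fold in control cells (log2 change 4.30, SE 0.0614, adjusted p = 2.39e-15). Of all tested genes 98.8% had a lower change in shDCLK1 and 99.2% in control cells. Untreated shDCLK1 cells held 1.78 times the control level (log2 difference 0.71, adjusted p = 1.55e-06), while with LPS they held 0.617 times that level (log2 difference -0.69, adjusted p = 1.71e-06). The difference of the LPS changes was -1.40 log2 units (SE 0.0868, adjusted p = 7.99e-08), the most negative among the members.

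**Figure D3:**
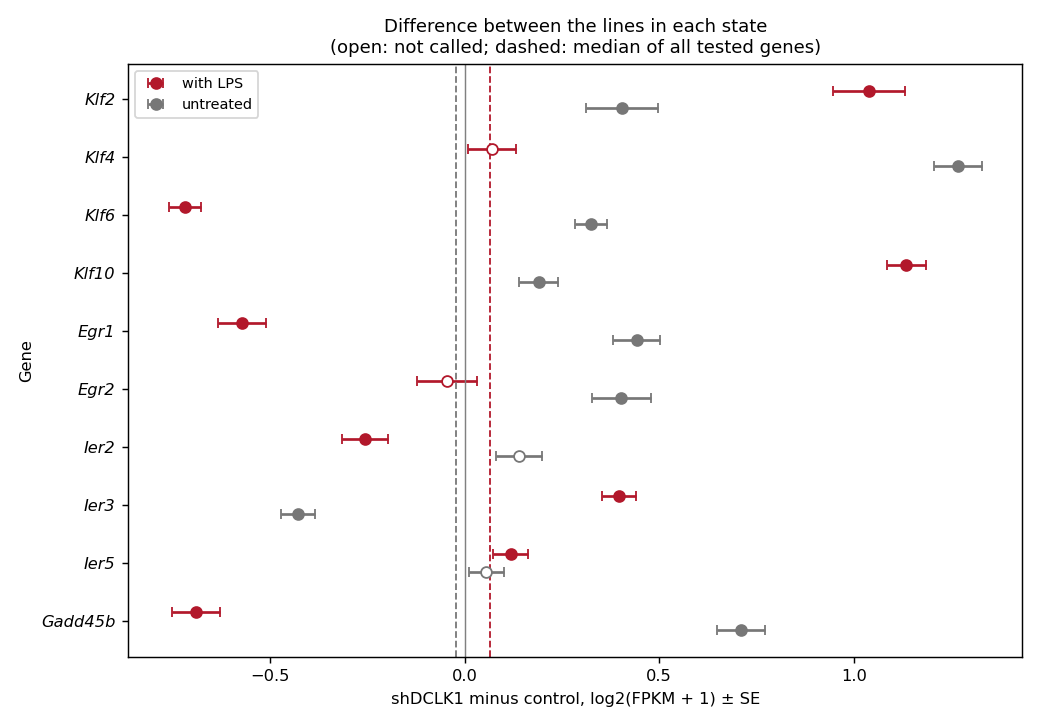
Difference between the lines, shDCLK1 minus control, on the log2(FPKM + 1) scale (x axis) for each gene (y axis), with bars of 1 SE, with LPS and untreated. Filled points passed an adjusted p of 0.05, and dashed lines mark the median of all tested genes. Klf6, Egr1 and Gadd45b lie above 0 untreated and below 0 with LPS, and Ier3 the other way round, all called in both states. Egr2 and Ier2 also lie above 0 untreated and below 0 with LPS, but Egr2 was not called with LPS and Ier2 not untreated.

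The plot of line differences groups the members by pattern. Klf6, Egr1 and Gadd45b were higher in shDCLK1 cells before LPS and lower with LPS, each called in both states. Ier3 was lower before and higher with LPS. Klf2 and Klf10 were higher in both states, and by more with LPS. The comparisons share libraries, since each untreated group enters both an LPS change and a line difference, so these patterns are not independent of the interaction values.

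Scaling moved the LPS changes of all genes together. The median of all tested genes was -0.29 in shDCLK1 and -0.38 in control cells as deposited, and near 0 after median-of-ratios scaling (-0.005 and -0.008) and quantile normalization (-0.04 and -0.05). Over all genes the calls with LPS were 2747 higher and 6602 lower in shDCLK1 cells and 2741 and 6863 in control cells. They were 4548 and 4562, and 4708 and 4728, after median-of-ratios scaling. For the line difference with LPS the split was 3788 higher and 1583 lower, and 2573 and 2892 after that scaling. For the interaction it was 3601 and 1863, and 2534 and 2608. Among the members the split with LPS went to 6 higher and 3 lower in shDCLK1 cells and 7 and 2 in control cells. For the line difference with LPS it was 3 and 5 after quantile normalization. The members that turned direction with a call at stake were Klf2 in control cells and Ier5 in both lines.

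**Figure D4:**
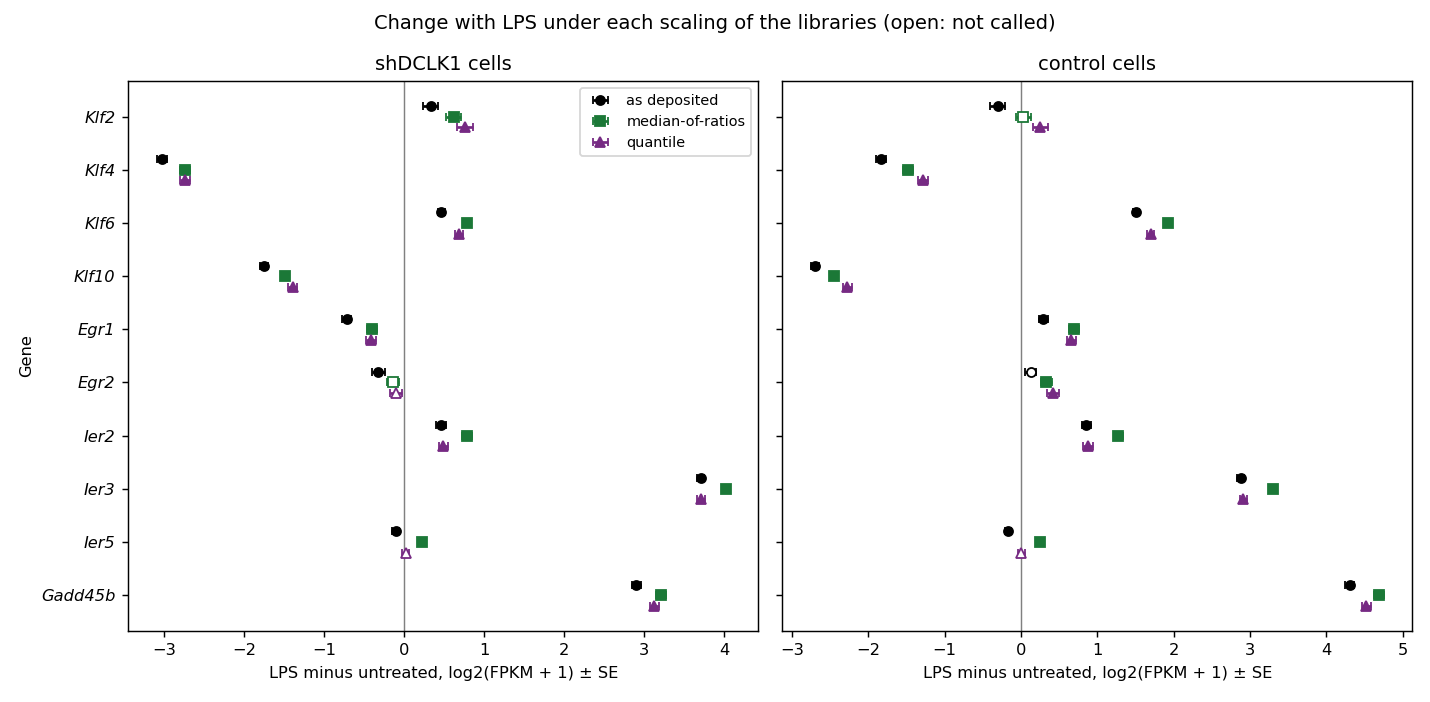
Change with LPS on the log2(FPKM + 1) scale (x axis, with bars of 1 SE) for each gene (y axis) under the deposited values and 2 scalings, in shDCLK1 cells (left) and control cells (right). Filled points passed an adjusted p of 0.05. Klf4 and Klf10 stay below 0 and Klf6, Ier2, Ier3 and Gadd45b above 0 throughout, while Ier5 crosses 0 in both lines and Klf2 in control cells.

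The relatives of these genes were read from lists. Of 17 other KLF and SP factors 11 could be tested. With LPS 1 was higher and 9 lower in shDCLK1 cells, and 2 higher and 8 lower in control cells, with median changes of -0.83 and -0.66. Over all genes 24.9% were higher and 59.7% lower in shDCLK1 cells and 24.8% and 62.1% in control cells, so the share of the list that was lower in control cells is near the background. Klf16 was at 8.11 FPKM in shDCLK1 and 5.77 FPKM in control cells with LPS, and at 19.3 and 23.0 FPKM in the untreated lines. Klf9 was at 2.29 and 1.77 FPKM with LPS, and at 7.18 and 6.36 FPKM without. Klf13 was at 3.23 FPKM with LPS and 9.88 FPKM without in shDCLK1 cells. Klf3, a repressor, like Egr1 fell in shDCLK1 cells and rose in control cells. It was at 0.603 ± 0.0814 FPKM in shDCLK1 cells with LPS, 2.34 ± 0.0781 FPKM untreated, 1.31 ± 0.187 FPKM in control cells with LPS and 0.627 ± 0.0929 FPKM untreated. Its level fell by 1.06 log2 units in shDCLK1 cells (adjusted p = 4.31e-08) and rose by 0.50 in control cells (adjusted p = 5.46e-05). Klf3 reached 1 FPKM only in untreated shDCLK1 cells and in control cells with LPS. It thus entered the fit only through the groups where it was high, and both calls are no independent support.

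Of 10 other EGR, IER and GADD45 genes and EGR corepressors, 7 could be tested. With LPS 4 were higher and 2 lower in shDCLK1 cells, where 24.9% and 59.7% of all genes were, and 4 and 3 in control cells, where 24.8% and 62.1% were. Their median changes were 0.41 and 0.39, against -0.29 and -0.38 for all genes. Gadd45g, a sister of Gadd45b, was at 17.7 ± 1.80 FPKM with LPS and 3.04 ± 0.127 FPKM untreated in shDCLK1 cells, and at 22.9 ± 2.59 and 5.70 ± 0.283 FPKM in control cells. Its line difference was negative in both states (-0.35 with LPS, adjusted p = 0.00262, and -0.73 untreated, adjusted p = 1.10e-05), where that of Gadd45b changed sign. Gadd45a was 0.59 log2 units higher in untreated shDCLK1 cells (adjusted p = 1.59e-05). Egr3 was at 1.28 ± 0.163 FPKM in shDCLK1 and 0.327 ± 0.0153 FPKM in control cells with LPS, and at 3.05 ± 0.235 and 3.21 ± 0.178 FPKM untreated. The corepressor Nab2, which binds EGR proteins, was at 50.6 FPKM with LPS and 27.7 FPKM untreated in shDCLK1 cells (log2 change 0.85, adjusted p = 4.85e-10).

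The factors and kinases that act on early gene promoters were mostly lower with LPS. Of the 20 tested, 3 were higher and 17 lower in each line. Over all genes 24.9% were higher and 59.7% lower in shDCLK1 cells, and 24.8% and 62.1% in control cells. The median changes of the list were -0.66 in shDCLK1 and -0.56 in control cells, below the all-gene medians. The counts include Rps6ka5, at 0.41 FPKM in shDCLK1 and 0.18 FPKM in control cells with LPS, and at 3.88 and 3.65 FPKM untreated. It passed the filter only through the untreated groups, so its falls are no independent support. Elk3, an ETS partner of serum response factor, was at 8.35 FPKM in shDCLK1 and 3.72 FPKM in control cells with LPS, a log2 difference of 0.98 (adjusted p = 4.85e-09). The MEF2 factor Mef2c was at 19.7 FPKM in shDCLK1 and 13.7 FPKM in control cells with LPS (log2 difference 0.50, adjusted p = 1.53e-07). Of 7 tested p38 and JNK kinases and their activators, 1 was higher and 5 lower with LPS in shDCLK1 cells (24.9% and 59.7% of all genes). In control cells 1 was higher and 6 lower (24.8% and 62.1%). Their median changes of -0.35 and -0.40 lay near the all-gene medians of -0.29 and -0.38. Map3k4, which GADD45 proteins bind, was at 4.54 FPKM with LPS and 12.3 FPKM untreated in shDCLK1 cells and at 4.74 and 13.3 FPKM in control cells.

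Among 21 tested genes of a list of other immediate-early genes, 19 were higher and 2 lower with LPS in shDCLK1 cells (24.9% and 59.7% of all genes). In control cells 20 were higher and 1 lower (24.8% and 62.1%). Their median changes were 1.37 and 1.84, against -0.29 and -0.38 for all genes. The counts include Nr4a3, at 3.07 FPKM in shDCLK1 and 6.57 FPKM in control cells with LPS, and at 0.07 and 0.05 FPKM untreated. It passed the filter only through the LPS groups, so its rises are no independent support. Between untreated lines 11 were higher and 3 lower in shDCLK1 cells (21.4% and 23.6% of all genes), led by Myc (4.13 ± 0.556 against 0.970 ± 0.0458 FPKM) and Fosl1 (7.50 ± 0.300 against 2.69 ± 0.0666 FPKM). With LPS 7 were higher and 10 lower (34.3% and 14.3% of all genes), and the MAP kinase phosphatase Dusp1 was at 82.8 FPKM in shDCLK1 and 202 FPKM in control cells (log2 difference -1.28, adjusted p = 5.47e-09). The interaction was called for 17 of the 21, 4 positive and 13 negative (32.6% and 16.9% of all genes), with a median of -0.55, against 0.09 for all genes. The median of the 10 members was -0.42.

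The genes most like each member over the 12 libraries were named by Pearson correlation of log2(FPKM + 1) over all tested genes. The libraries fall into 4 groups, so a high r mostly says that 2 genes share the order of the groups. Klf4 was followed by Hoxa7 (r = 0.997) and Cd24a (r = 0.997), and Klf10 by Pdxk (r = 0.999) and Kcnn4 (r = 0.999). Klf6 was followed by Ppp1r15a (r = 0.995), which reverses the arrest of translation in stress, and by Arcn1 (r = 0.993). Gadd45b was most like Mxd1 (r = 0.999) and Lcp2 (r = 0.999), and Ier3 most like Apbb3 (r = 0.999) and Srgn (r = 0.998). Egr1 was most like the MHC class II gene H2-Aa (r = 0.967), at 8.24 FPKM in shDCLK1 cells with LPS, 27.4 FPKM in untreated shDCLK1 cells, 22.5 FPKM in control cells with LPS and 13.4 FPKM in untreated control cells. Klf2 was most like Arf2 (r = 0.964) and Dcstamp (r = 0.961), Ier2 like Tha1 (r = 0.989) and Elp5 (r = 0.987), Egr2 like Rhox5 (r = 0.936) and Cc2d2a (r = 0.921), and Ier5 like Akt1s1 (r = 0.926) and Stk19 (r = 0.918). Ric8a was second for Egr1 (r = 0.961).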

How the data were processed

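The deposited table holds FPKM per gene for 12 libraries, with 2 decimals, as calculated by the authors. Bowtie 0.12.2, HISAT2 2.0, StringTie 1.3.0, together with mm9 and mm8 as builds, are named, per the submitters' processing notes, without roles. Annotation, filters and use of strand are not given in the sources used here. An unnamed column with 18 entries was not used. Symbols that a spreadsheet had turned into dates were restored for 27 genes from their IDs. Read totals are not given. The steps of 11 genes whose values were whole multiples of their lowest value, to within 0.05, put relative depths at 0.976 to 1.01. That choice admits only genes with nearly equal steps in all libraries. The range was thus set in advance, and depth was not measured. Counting intervals could not be had.

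The 11052 genes that reached 1 FPKM in 3 or more libraries entered the fit, as log2(FPKM + 1), in limma 3.58.1 under R 4.3.3, with 4 group means and a trended prior. The 5 contrasts, 2 of LPS, 2 of line and the interaction, were adjusted by Benjamini-Hochberg, two-sided, and called under 0.05. Folds are ratios of mean FPKM. Values were not rescaled. Alternatives were a pseudocount of 0.1, no filter, median-of-ratios scaling, quantile normalization, 2-group fits, a replicate block and leaving out each library. The procedure was tested on simulated data. Members, lists and the rule for naming genes were chosen with earlier results of these data known. The rule names all members, the 2 tested genes most correlated with each, and the 2 called genes of each list with the largest change in a comparison. Klf11 and Nr4a3 were named outside this rule, for the way they passed the filter. Figures were drawn with matplotlib 3.10.9 in Python 3.11.15.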

Additional observations from a re-analysis of the deposited data

Results flagged for a closer look

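For 9 of the 10 genes the LPS change differed between the lines by the interaction term (limma, shDCLK1 minus control, log2 units). In each case the 3 LPS and 3 untreated libraries of each line entered the test. A more positive change in shDCLK1 cells was found for Klf10 (0.95, adjusted p = 4.75e-07), Ier3 (0.83, adjusted p = 3.75e-07) and Klf2 (0.64, adjusted p = 0.00161). A more negative one was found for Gadd45b (-1.40, adjusted p = 7.99e-08), Klf4 (-1.20, adjusted p = 3.50e-07), Klf6 (-1.04, adjusted p = 3.45e-08), Egr1 (-1.01, adjusted p = 1.40e-06), Egr2 (-0.45, adjusted p = 0.00432, for a gene that passed the filter only through untreated shDCLK1 cells) and Ier2 (-0.40, adjusted p = 0.00176). Over all genes 49.4% were called for this term. All 9 kept their direction and call in each of the 17 alternatives run for the interaction, with Egr2 between -0.78 and -0.41 and Klf10 between 0.88 and 1.89. Every LPS library of shDCLK1 cells lay below every untreated one for Egr1, and every LPS library of control cells above every untreated one.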

How the results depend on the processing

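Of 650 recomputed member changes, 620 kept their direction and their side of the threshold, 19 lost a call or, uncalled, changed sign, 5 gained one and 6 called ones turned. The total counts of called genes and members stayed within 1.5 times in every alternative, but their split by direction did not. With median-of-ratios scaling the genes called higher with LPS were 4548 in shDCLK1 and 4708 in control cells, in place of 2747 and 2741. Genes lower in shDCLK1 cells with LPS were then 2892 in place of 1583. Members called lower with LPS were 3 and 2 in these lines after either scaling, in place of 5 and 4. The 6 turns all came from scaling. After median-of-ratios scaling LPS changes were 0.032 for Klf2 and 0.25 for Ier5 in control cells and 0.22 for Ier5 in shDCLK1 cells. After quantile normalization they were 0.25 for Klf2 and 0.0066 for Ier5 in control cells and 0.020 for Ier5 in shDCLK1 cells. Both scalings move the median of all genes to near 0. Leaving out 1 library of a comparison changed a call of Ier5 and Ier2 alone, in 10 of 360 recomputed changes, and leaving out a library outside the comparison ended 5 of 240. Same-numbered libraries share a number only: their deviations from the group means correlated at -0.107 to 0.0166. With a replicate block, 9 members were called for LPS in shDCLK1 cells and 7 for the line difference with LPS, in place of 10 and 8, the lost ones being Ier5 (adjusted p = 0.0627 and 0.0701), and 9, 8 and 9 in the other comparisons. Depth is not known, which limits what can be said of genes near 1 FPKM such as Egr2.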

Other observations

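The members did not move as 1 block. Over the 12 libraries Ier2, Ier3, Klf6 and Gadd45b correlated with each other on the log2(FPKM + 1) scale, from r = 0.804 (Klf6 with Ier3) to r = 0.970 (Ier2 with Gadd45b), and Klf4 with Klf10 at r = 0.905. These values describe libraries that fall into 4 groups.

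AUUUA, a pentamer of short-lived transcripts, was counted as ATTTA in the 3' untranslated region of the longest coding transcript. Ier3 held 5 in 613 bases, 8.16 per kilobase. The median of the members was 1.501 per kilobase and that of 10052 tested genes with an annotated structure 1.38. Gadd45b and Ier2 held 0 in 558 and 755 bases. Klf6 held 7 in 3111 bases and Klf10 4 in 1492 bases. Half-lives were not measured.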
